A study of Oryza sativa Japonica Group with 6 samples.

Results

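Homeobox, YABBY, TCP and growth-regulating factors are families of plant transcription factors that shape shoots and leaves. Their genes were picked by annotation: the text had to contain homeobox, KNOX, YABBY, TCP transcription, TCP family or growth-regulating factor, in any case. Of 37863 genes in the deposited table, 78 had such an annotation, and 52 of them had 10 or more reads in at least 3 of 6 libraries; these 52 are called members. A further 26 matched genes fell under the read minimum, and 18 of those had 0 reads in every library. Among those just outside was Os06g0204800, annotated as similar to growth-regulating factor 2, with 12, 0 and 0 reads in WT and 0, 16 and 0 in the other line. Just inside was the WUSCHEL-related gene Os07g0684900, with 15, 0 and 0 reads in WT and 36, 15 and 0 in the other line.

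The libraries were made from polyA RNA of leaves of rice seedlings (Oryza sativa, Japonica group) at day 14, grown on MS medium. WT plants gave 3 libraries, and plants of OsWRKY65-2, labelled as overexpressing the WRKY transcription factor OsWRKY65, gave the other 3. The labels name neither the promoter of the transgene nor the cultivar, and all OsWRKY65-2 libraries carry the same line name. Whether replicates are separate plants is not stated, so a p-value here reflects the spread among the libraries only, and that spread may be technical.

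The WT columns carry a prefix in the table that the labels do not explain. No other columns could hold the WT samples, so these were taken as WT, and they are called WT 1, 2 and 3 by the number in the column name. The libraries held 20585288 to 29720852 reads each. OsWRKY65-2 replicate 3 stood apart: 20893 genes had reads in it, against 24091 to 27129 in the others, and its correlation with each other library was 0.603 to 0.695, against 0.856 to 0.926 among those 5. The gene taken as OsWRKY65, Os12g0116800, which the table annotates only as a WRKY factor, stood at 4.16, 0 and 0 CPM (read counts normalised for library size) in WT and at 69.5, 42.3 and 1040 CPM in OsWRKY65-2. Each OsWRKY65-2 library was above all WT libraries for this gene, and replicate 3 was far above the other 2. This gene was taken after its counts had been seen, so it is no independent check of the labels. Values without OsWRKY65-2 replicate 3 are therefore given beside the results that it moves most.

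KNOX class I proteins (knotted1-like homeobox) act in the shoot apical meristem, where they keep cells undetermined, and they are known to be silenced as leaf primordia form. Growth-regulating factors, or GRFs, promote cell proliferation in young leaves, and YABBY proteins act in the polarity and outgrowth of lateral organs. TCP proteins promote or restrain proliferation according to their class, while HD-Zip IV proteins (homeodomain-leucine zipper) act in the epidermis and HD-Zip III proteins in the vasculature and the upper side of leaves. A seedling leaf sample can contain mature blade, young leaves and parts near the shoot apex in unknown proportions. In bulk RNA, fewer cells of a type and less RNA per cell cannot be told apart.

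By hand, from the annotation and the known class of a named gene, the members were grouped into 5 KNOX class I genes, 4 KNOX class II genes, 1 BELL gene, 5 HD-Zip I, 2 HD-Zip III and 6 HD-Zip IV genes, 1 WUSCHEL-related gene (WOX), 9 zinc finger homeodomain genes (ZF-HD), 6 other homeobox genes, 4 YABBY, 2 TCP and 5 GRF genes. The remaining 2, Os02g0678800 and Os04g0600900, are not annotated as homeobox genes and matched because their annotation says that they regulate a KNOX gene. That annotation names no family, so they were kept apart. Whether they belong with the GRF genes was not checked here.

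No member differed between the genotypes at an adjusted p under 0.05 in edgeR's quasi-likelihood test over 23769 genes. Called higher were 0 of 52 members and called lower 0 of 52, and the share called over all genes tested was 0.0% in each direction. The smallest adjusted p among members was 0.763 (edgeR, Benjamini-Hochberg). In simulated counts this edgeR test missed most changed genes, so 0 calls does not show that the members were unchanged. At an unadjusted p under 0.05 there were 2 members higher and 1 lower, where 4.25% and 2.26% of all genes passed that limit. DESeq2, another count test, which called more unchanged genes in simulated counts than its threshold allows, called 1 member higher and 1 lower, against 1.76% and 1.27% of all genes. Run with no filter, it called 1 higher and 0 lower, against 0.613% and 0.356%, and without OsWRKY65-2 replicate 3 it called 1 higher and 1 lower, against 1.11% and 1.73%. The member called higher was the ZF-HD gene Os01g0635550. The member called lower was the KNOX class I gene Os03g0673000, annotated as similar to OSH10, and it met the read minimum through its WT reads alone. These shares of 52 are near those of all genes, so the members as a group did not stand out in the number of calls.

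The median log2 fold change of the members, OsWRKY65-2 over WT, was 0.23, beside -0.01 for all genes tested, and 29 of 52 were positive, beside 49.5% of all genes. Without OsWRKY65-2 replicate 3 the median was 0.31, beside 0.02, and 34 members were positive, beside 51.6%; edgeR then called 0 members in either direction, beside 0.0527% of genes higher and 0.0243% lower. The groups did not overlap, with OsWRKY65-2 above WT, in 3 members, beside 7.16% of all genes, and with OsWRKY65-2 below WT in 4, beside 10.5%. Among those below was Os03g0673000, which met the read minimum through its WT reads alone. Leaving out replicate 3 raised the first count to 12 (23.1% of members), beside 14.5% of genes. The second stayed at 4 (7.69%), beside 13.9%. With that library left out the share over all genes rose too, from 7.16% above and 10.5% below, and the difference in shares was not tested.

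**Figure D1:**
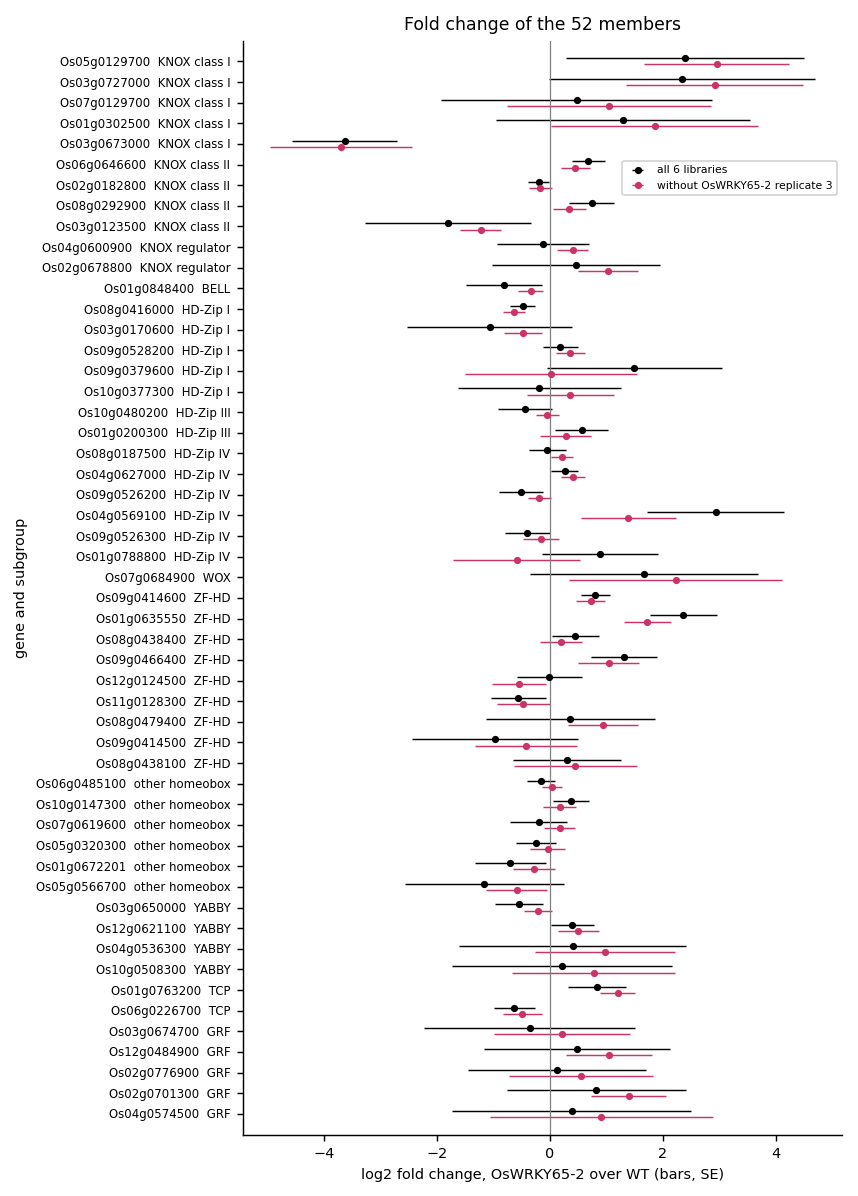
The log2 fold change of each member, OsWRKY65-2 over WT, is plotted on the horizontal axis for all 6 libraries (black) and without OsWRKY65-2 replicate 3 (red), with bars of 1 standard error; members are ordered by subgroup. With all 6 libraries the 12 widest bars are those of 4 class I KNOX, 5 GRF, 2 YABBY and 1 WOX gene. The values furthest from 0 are those of Os03g0673000 at -3.63 and Os04g0569100 at 2.93. Os03g0673000 had 0 reads in every OsWRKY65-2 library, so its value depends on the small count added in the fit (prior count 2). DESeq2 gave -6.75 for it.

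The members differed in level by orders of magnitude. By mean deposited TPM (a level per transcript length, scaled to the same total in each library) over the 3 OsWRKY65-2 libraries, 25 members reached 10 TPM or more and 18 were under 5 TPM. The highest mean levels in OsWRKY65-2 were those of the class II KNOX genes Os06g0646600 (HOS59), at 201 ± 58.3 TPM (SD, n = 3), Os08g0292900, at 87.3 ± 40.0 TPM, and Os02g0182800 (HOS58), at 64.6 ± 5.01 TPM. The HD-Zip I gene Os08g0416000 (HOX5) followed at 43.8 ± 9.27 TPM and the ZF-HD gene Os01g0635550 at 41.0 ± 25.6 TPM, which do not differ beyond their spread. The class I KNOX genes, GRF12-like Os04g0574500 and the WOX gene lay at the low end, each under 5 TPM on average.

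**Figure D2:**
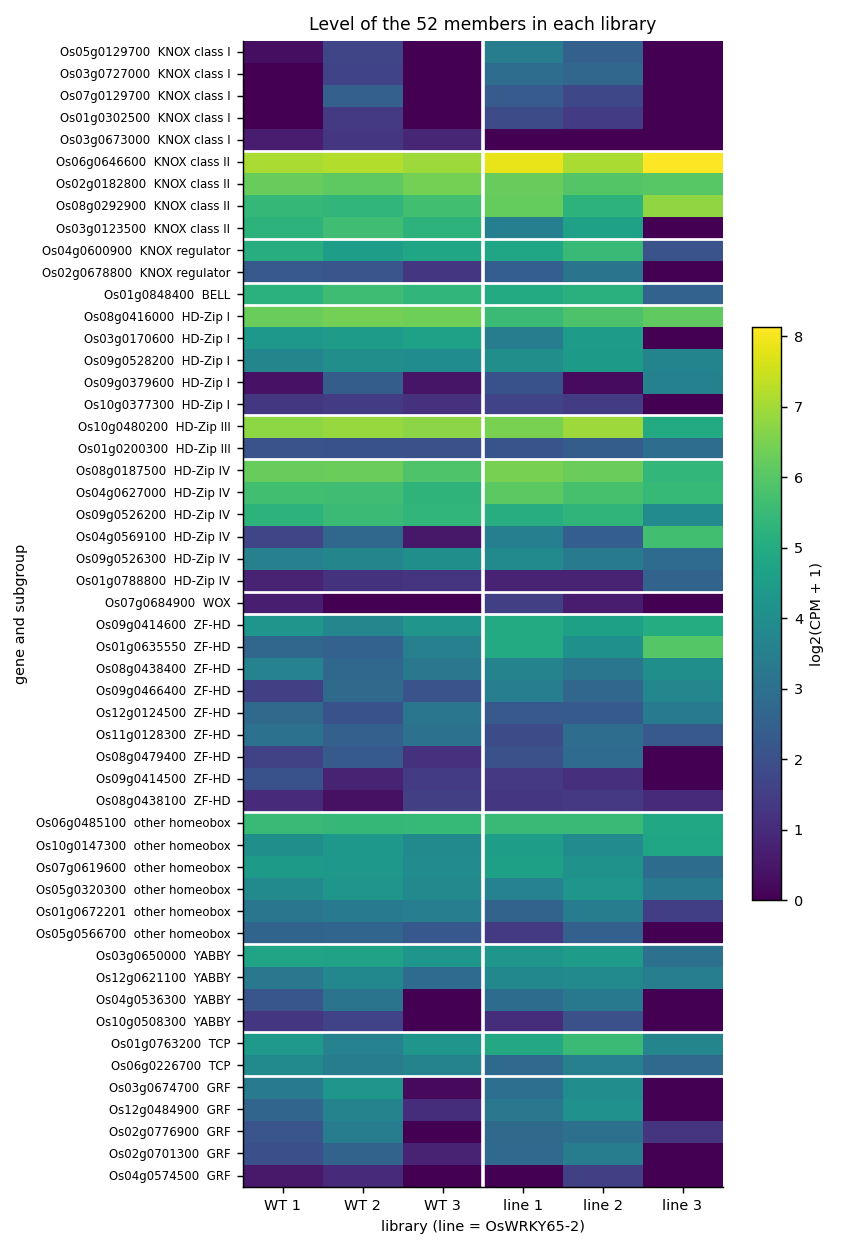
Colour gives log2(CPM + 1) of each member (rows, by subgroup) in each library (columns, 3 WT left of the white line and 3 OsWRKY65-2 right of it); CPM is not per length, so colours compare libraries within a row. Class II KNOX genes are bright in nearly every library, while most class I KNOX and GRF rows and 2 YABBY rows are dark in WT 3 and in OsWRKY65-2 replicate 3, and the class I KNOX rows are dark in WT 1 too.

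Of the 5 class I KNOX genes, 4 had all or nearly all of their reads in WT 2 and in OsWRKY65-2 replicates 1 and 2. Os05g0129700, annotated with a role in forming the shoot apical meristem, had 6, 74 and 0 reads in WT and 183, 129 and 0 in OsWRKY65-2. Os03g0727000, annotated as a meristem maintenance gene, had 0, 70 and 0 reads in WT and 124, 151 and 0 in OsWRKY65-2. Both were present in WT 2 and in OsWRKY65-2 replicates 1 and 2, and at or near 0 in the other 3 libraries. Os07g0129700, annotated with control of seed shattering and of internode development, had 0, 150 and 0 reads in WT and 78, 67 and 0 in OsWRKY65-2. Os01g0302500, the ortholog of maize Liguleless3, had 0, 52 and 0 reads in WT and 50, 46 and 0 in OsWRKY65-2. The genotypes overlapped for these 4 genes, with log2 fold changes from 0.47 to 2.39 and edgeR adjusted p from 0.853 to 0.974.

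The class I genes above all had 0 reads in OsWRKY65-2 replicate 3. Without that library, OsWRKY65-2 was above every WT library for 3 of them, beside 14.5% of all genes, the exception being Os07g0129700. Their log2 fold changes were then 2.95 ± 1.28 (SE) for Os05g0129700, 2.91 ± 1.56 for Os03g0727000 and 1.85 ± 1.83 for Os01g0302500. None passed the test, with edgeR adjusted p of 0.474, 0.550 and 0.788 in that order. These values also rest on WT 2: with that library left out and all others kept, the log2 fold change was 4.51 ± 2.5 (SE) for Os05g0129700 and 5.53 ± 2.13 for Os03g0727000, each with an edgeR adjusted p of 0.999. The median of the class I genes went from 1.29 with all libraries to 4.51 without WT 2, and to 1.85 without OsWRKY65-2 replicate 3.

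The fifth class I KNOX gene, Os03g0673000 on chromosome 3, had a different distribution. It had 13, 47 and 20 reads in WT and 0, 0 and 0 in OsWRKY65-2. Its WT level was 0.923 ± 0.468 CPM (SD, n = 3), at least 6.53-fold above the level that 3 counts per library would give in OsWRKY65-2. All WT libraries were above all OsWRKY65-2 libraries, in contrast to the other class I genes, which had reads in 2 OsWRKY65-2 libraries. Os03g0673000 met the minimum of 10 reads in at least 3 libraries through WT alone, so its membership was not independent of this difference. In edgeR its p was 0.0154 before and 0.763 after adjustment. It fell in DESeq2 with an adjusted p of 0.0101, and of 0.0389 without OsWRKY65-2 replicate 3, but that call was lost when DESeq2 was run with no filter on low counts (adjusted p = 0.0502). The table annotates it as similar to a fragment, and its difference rests on the few reads given here.

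KNOX class II genes are known to be expressed in differentiated tissue, unlike class I. Os06g0646600 (HOS59) stood at 137, 146 and 122 CPM in WT and at 231, 137 and 279 CPM in OsWRKY65-2. Its OsWRKY65-2 replicate 2 lay within the WT range, and its log2 fold change was 0.68 ± 0.30 (SE; edgeR adjusted p = 0.764). Os08g0292900, annotated as knotted-1-like 13, also had its highest level in OsWRKY65-2 replicate 3 and a lower one in replicate 2, at 41.9, 40.0 and 49.8 CPM in WT and 73.6, 37.4 and 110 CPM in OsWRKY65-2. Os02g0182800 (HOS58) was at 74.2, 68.0 and 85.2 CPM in WT and 73.9, 60.6 and 63.6 CPM in OsWRKY65-2, an overlap with a log2 fold change of -0.20 ± 0.19 (SE).

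Os03g0123500 (HOS66) was the class II gene with no overlap. It stood at 36.9, 48.8 and 37.1 CPM in WT and at 10.5, 24.2 and 0 CPM in OsWRKY65-2. Every OsWRKY65-2 library lay below every WT library, with the lowest in replicate 3, where it had 0 reads. The log2 fold change was -1.81 ± 1.47 (SE; edgeR adjusted p = 0.835), and -1.23 ± 0.36 without that replicate (edgeR adjusted p = 0.301, DESeq2 adjusted p = 0.0649), so no test called it. Summed over the 4 class II genes, WT had 290, 302 and 294 CPM, and OsWRKY65-2 had 389, 259 and 453 CPM, a range that overlapped.

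BELL proteins pair with KNOX proteins to bind DNA. The BELL member, Os01g0848400, annotated with seed shattering and maintenance of the shoot meristem, stood at 35.2, 48.1 and 39.8 CPM in WT and at 30.0, 35.0 and 4.92 CPM in OsWRKY65-2. The groups did not overlap, but WT 1 and OsWRKY65-2 replicate 2 differed by little. Its log2 fold change was -0.81 ± 0.67 (SE; edgeR adjusted p = 0.836), and -0.34 without replicate 3. The 2 members annotated as regulating the KNOX gene Oskn2 overlapped between genotypes. Os04g0600900 had 32.3, 22.5 and 26.2 CPM in WT and 26.9, 44.5 and 3.26 CPM in OsWRKY65-2, and Os02g0678800 had 3.80, 3.42 and 1.46 CPM in WT and 4.35, 7.67 and 0 CPM in OsWRKY65-2. In both, OsWRKY65-2 replicate 2 was the highest library and replicate 3 the lowest.

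The 5 GRF genes varied more between libraries of 1 genotype than between genotypes. Os03g0674700, similar to growth-regulating factor 3, stood at 9.37, 18.2 and 0.162 CPM in WT and at 6.76, 14.7 and 0 CPM in OsWRKY65-2. Os12g0484900, annotated with plant architecture and auxin and gibberellin metabolism, stood at 5.24, 11.4 and 1.10 CPM in WT and at 8.60, 16.2 and 0 CPM in OsWRKY65-2. Os02g0701300, annotated with grain shape and panicle length, stood at 3.0, 4.95 and 0.772 CPM in WT and at 5.93, 9.63 and 0 CPM in OsWRKY65-2. In all of these genes WT 3 was the lowest WT library and OsWRKY65-2 replicate 3 was at 0.

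Os02g0776900, similar to growth-regulating factor 1, stood at 3.40, 9.96 and 0 CPM in WT and at 6.08, 7.06 and 1.39 CPM in OsWRKY65-2, so its lowest library was WT 3. Os04g0574500, similar to growth-regulating factor 12, had 12, 31 and 0 reads in WT and 0, 54 and 0 in OsWRKY65-2. The 5 GRF genes together had 21.5, 45.5 and 2.03 CPM in WT and 27.4, 49.5 and 1.39 CPM in OsWRKY65-2. For these 5 genes, the library numbered 3 of each genotype had a sum more than 10 times below those of the other 2. The 2 members annotated as KNOX regulators are not in these sums. Together they had 36.1, 26.0 and 27.6 CPM in WT, where WT 3 was not the lowest, and 31.3, 52.2 and 3.26 CPM in OsWRKY65-2. Log2 fold changes of the 5 GRF genes lay between -0.36 and 0.82, and the smallest edgeR adjusted p was 0.932. Without OsWRKY65-2 replicate 3 all 5 were positive, with a median of 0.91, and the smallest edgeR adjusted p was 0.510.

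Of the 4 YABBY genes, 2 had a like distribution. Os04g0536300, annotated with leaf development, stood at 3.52, 7.82 and 0 CPM in WT and at 6.29, 8.74 and 0 CPM in OsWRKY65-2. Os10g0508300, with the same role in its annotation, had 36, 70 and 0 reads in WT and 21, 86 and 0 in OsWRKY65-2. Both were at 0 in the third library of both genotypes, while the other 2 had reads in all 6. Os03g0650000 (Yabby9-like) stood at 25.9, 24.7 and 18.3 CPM in WT and at 18.4, 21.3 and 7.43 CPM in OsWRKY65-2. Os12g0621100, similar to a filamentous flower-like protein, stood at 8.45, 13 and 6.17 CPM in WT and at 12.8, 13.5 and 10.1 CPM in OsWRKY65-2. The genotypes overlapped for all 4, with log2 fold changes from -0.55 to 0.40 and a smallest edgeR adjusted p of 0.828. Their median was 0.30 with all libraries and 0.64 without OsWRKY65-2 replicate 3.

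**Figure D3:**
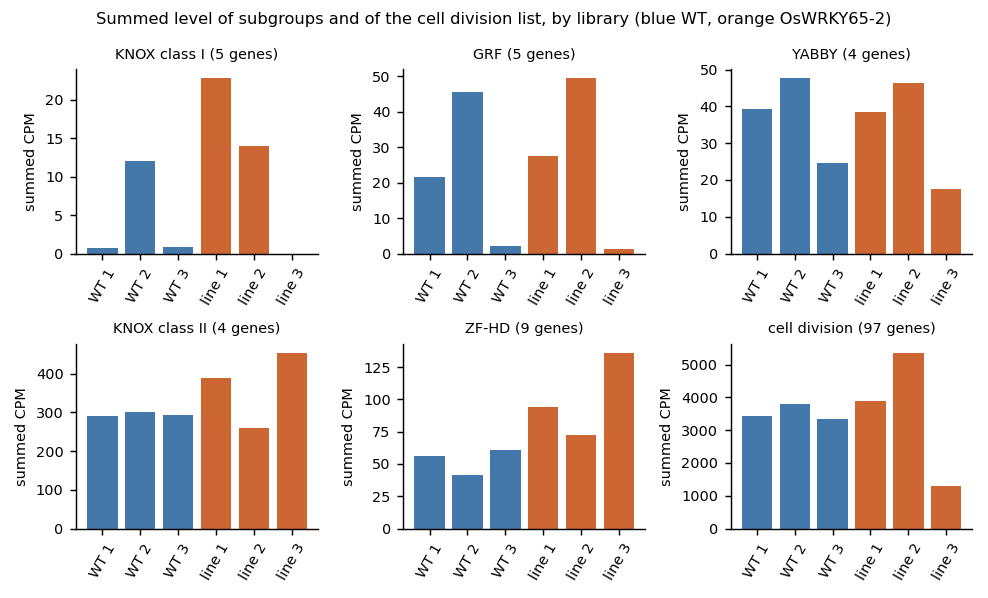
Bars give the summed CPM of 5 subgroups and of the cell division list in each library (blue WT, orange OsWRKY65-2; line 1 to 3 are its replicates), each panel with its own axis from 0. Sums of the 5 genes grouped as GRF are 2.03 in WT 3 and 1.39 in OsWRKY65-2 replicate 3. The cell division sum is low only in the latter, at 1300 against 3350 in WT 3.

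Members with no reads were unevenly spread over the libraries of each genotype. There were 3, 1 and 9 members with 0 reads in WT 1, 2 and 3, and 2, 1 and 19 in OsWRKY65-2 replicates 1, 2 and 3. Over all genes tested the share at 0 was 0.69%, 3.01% and 4.76% for the WT libraries, and 3.39%, 2.49% and 17.9% for OsWRKY65-2. For WT 3 the members' share was 17.3%, and for OsWRKY65-2 replicate 3 it was 36.5%. Of the 9 members at 0 in WT 3, 8 were also at 0 in OsWRKY65-2 replicate 3: 4 class I KNOX, 2 YABBY, 1 GRF and the WOX gene. The highest WT library was more than 2 times the lowest for 23 of 52 members (44.2%), beside 29.3% of all genes. These shares describe the members and were not tested.

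Markers of other cells also differed between libraries, though not always in the libraries low in members, and their part in the values above was not tested. Summed over 97 genes annotated for cell division (cyclins, replication factors, histones and kinesins), WT had 3420, 3790 and 3350 CPM, and OsWRKY65-2 had 3890, 5350 and 1300 CPM. In OsWRKY65-2 replicate 3, 31 of the 86 tested genes of that list were at 0, and their median log2 CPM lay 3.77 below the WT mean; that library was also low in GRF, YABBY and class I KNOX genes. WT 3 was low in the same 3 subgroups, and WT 1 as low as WT 3 in class I KNOX genes (summed 0.760 against 0.812 CPM, beside 12 in WT 2), but in WT 3 the cell division median lay only 0.13 below the WT mean and 1 gene of the list was at 0. The class I KNOX median lay 1.46 below the WT mean in WT 1 and 1.59 below it in WT 3. The GRF median in WT 3 lay 2.15 below the WT mean on that scale and the YABBY median 1.75 below. The median of the 2 KNOX regulators, kept apart from the GRF genes, lay 0.43 below it in WT 3.

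Genes of the photosynthetic apparatus, 53 of them, summed to 17900, 16700 and 28200 CPM in WT and to 35500, 28800 and 36800 CPM in OsWRKY65-2, and 17 of the 47 tested had OsWRKY65-2 above WT with no overlap and 3 below, beside 7.16% and 10.5% of all genes. The list was thus expressed in every library, which does not by itself identify the tissue. Genes annotated as root-specific, of which there were 16, summed to 77.5 to 159 CPM in WT and to 88.6, 103 and 548 CPM in OsWRKY65-2, with replicate 3 the highest. A single gene, Os12g0555000, gave 437 of the 548 CPM in replicate 3, where the median of the 8 tested genes of the list lay 0.88 below the WT mean on the log2 scale and 2 of them were at 0. The senescence list of 13 genes summed to 498 to 630 CPM in WT and 525 to 760 CPM in OsWRKY65-2. In 1 of them OsWRKY65-2 was above WT with no overlap and in 3 below, beside 7.16% and 10.5% of all genes. DESeq2 called 0 higher and 2 lower, beside 1.76% and 1.27% of all genes, and edgeR called 0. Without OsWRKY65-2 replicate 3 DESeq2 called 1 higher and 1 lower, beside 1.11% and 1.73%.

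Among the 9 ZF-HD genes, which encode plant-specific homeodomain proteins with a zinc finger for dimerisation, 2 had OsWRKY65-2 above WT with no overlap and 0 below, beside 7.16% and 10.5% of all genes. Os01g0635550 on chromosome 1, annotated as having the dimerisation region, stood at 5.48, 4.86 and 10.6 CPM in WT and at 30.3, 16.1 and 62.4 CPM in OsWRKY65-2. The WT mean of 6.98 ± 3.15 CPM (SD, n = 3) stood against 36.2 ± 23.7 CPM in OsWRKY65-2, and the lowest OsWRKY65-2 library was above the highest of WT. The log2 fold change was 2.36 ± 0.59 (SE), with a p of 0.00674 before and 0.763 after adjustment in edgeR. It rose in DESeq2, with an adjusted p of 0.00445, of 0.0340 without OsWRKY65-2 replicate 3, and of 0.0368 with no filter. Without that replicate the log2 fold change was 1.72 ± 0.42 (SE; edgeR adjusted p = 0.240). An exact two-sided permutation test over 3 against 3 libraries cannot go below 0.10, which is its value for any gene with no overlap.

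Os09g0414600, also on the list of genes with no overlap, stood at 18.3, 12.5 and 18 CPM in WT and at 30.2, 23.6 and 31.5 CPM in OsWRKY65-2. Every OsWRKY65-2 library was above every WT library, and replicate 3 lay close to replicate 1. Its log2 fold change was 0.80 ± 0.26 (SE), with a p of 0.0217 before and 0.763 after adjustment in edgeR and an adjusted p of 0.0614 in DESeq2. Os09g0414500, which has the next identifier on chromosome 9 and is likewise annotated as similar to a ZF-HD protein, went otherwise, with 3.16, 0.703 and 1.75 CPM in WT and 1.57, 1.18 and 0 CPM in OsWRKY65-2. Reads of such neighbouring or near-identical genes may have been shared between them, since how reads were assigned to such genes is not stated. The same holds for the ZF-HD pairs Os08g0438100 with Os08g0438400 and Os11g0128300 with Os12g0124500.

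Os09g0466400, annotated with modulation of leaf rolling, stood at 1.88, 6.02 and 3.25 CPM in WT and at 10.2, 5.39 and 12.5 CPM in OsWRKY65-2. OsWRKY65-2 replicate 2 lay within the WT range, and the log2 fold change of 1.31 ± 0.58 (SE) did not pass the test (edgeR adjusted p = 0.764). This gene was chosen after its values were seen. Os08g0438400 stood at 11.2, 5.65 and 8.65 CPM in WT and at 11.3, 8.06 and 15.5 CPM in OsWRKY65-2, with replicate 2 within the WT range. With it, the other 5 ZF-HD genes overlapped between genotypes, with log2 fold changes from -0.56 to 0.45 for the 4 with reads in every library. The fifth of these, Os08g0479400, which is annotated with root meristem activity, had 0 reads in OsWRKY65-2 replicate 3 and 30 to 174 in the others. Together the 9 genes had 56.3, 41.8 and 60.7 CPM in WT and 94.5, 72.4 and 136 CPM in OsWRKY65-2. These sums did not overlap, and Os01g0635550 is the only one of the 9 that DESeq2 called.

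**Figure D4:**
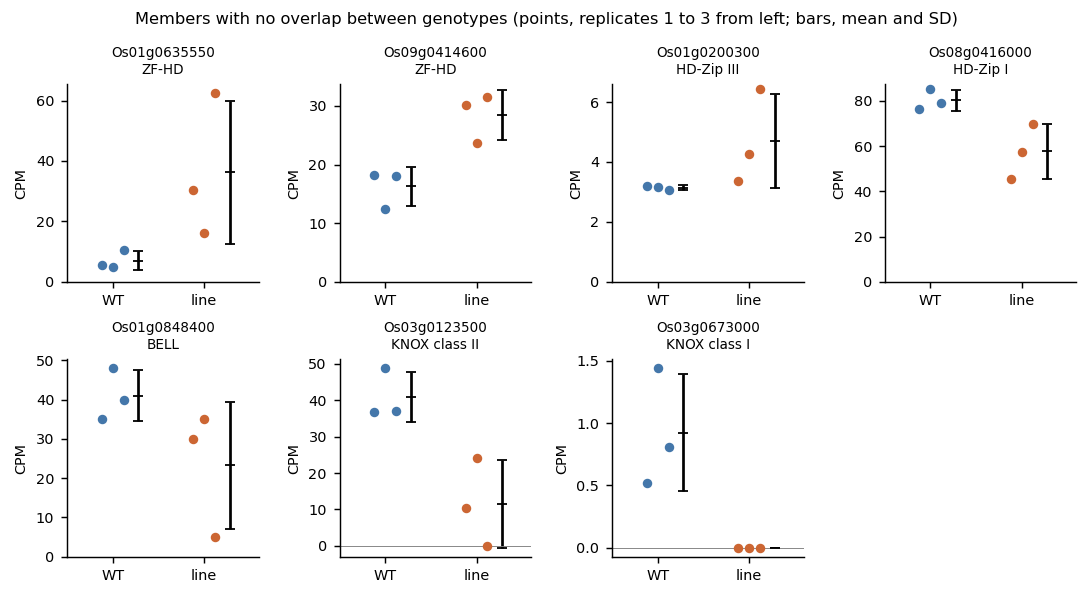
Points are CPM in each library for the 7 members whose genotypes do not overlap (blue WT, orange OsWRKY65-2, labelled line; replicates 1 to 3 from the left), with the mean and 1 SD as bars. Os01g0635550, Os09g0414600 and Os01g0200300 are higher in OsWRKY65-2, the other 4 lower, and Os03g0673000 is at 0 in all OsWRKY65-2 libraries.

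HD-Zip I proteins are known for roles in stress responses and organ growth. Os08g0416000 (HOX5) stood at 76.6, 85.3 and 78.9 CPM in WT and at 45.5, 57.4 and 70.0 CPM in OsWRKY65-2. All OsWRKY65-2 libraries lay below WT, with replicate 3 the nearest to it. The WT mean of 80.3 ± 4.53 CPM (SD, n = 3) stood against 57.6 ± 12.2 CPM in OsWRKY65-2, with a log2 fold change of -0.48 ± 0.22 (SE; edgeR adjusted p = 0.764). Without replicate 3 it was -0.64 ± 0.19 (SE), with adjusted p of 0.313 in edgeR and 0.0523 in DESeq2.

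Os03g0170600 (HOX21) stood at 19.3, 21.5 and 23.9 CPM in WT and at 9.96, 20.8 and 0 CPM in OsWRKY65-2. WT libraries were close together here, and OsWRKY65-2 ran from 0 to within the WT range. Os09g0528200 (HOX6) overlapped, at 12.3 to 15.2 CPM in WT and 15.3, 20.5 and 11.7 CPM in OsWRKY65-2; without replicate 3 OsWRKY65-2 was above WT, with a log2 fold change of 0.36 ± 0.26 (SE) against 0.18 with all libraries. The remaining HD-Zip I genes, Os10g0377300 (HOX8) and Os09g0379600 (HOX25), were under 5 TPM on average in OsWRKY65-2 and overlapped too, with log2 fold changes of -0.19 and 1.49. Both values rest on replicate 3. Without it that of Os10g0377300 was 0.36 ± 0.77 (SE), with both remaining OsWRKY65-2 libraries above WT, and that of Os09g0379600 was 0.01 ± 1.52.

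Both HD-Zip III genes had narrow WT ranges. Os10g0480200 (HOX9) stood at 107, 117 and 104 CPM in WT and at 89.6, 122 and 30.3 CPM in OsWRKY65-2, so only replicate 3 was far from WT. Its log2 fold change was -0.44 ± 0.48 (SE; edgeR adjusted p = 0.881), and -0.05 without that library. Os01g0200300 (HOX29) stood at 3.20, 3.18 and 3.05 CPM in WT and at 3.36, 4.28 and 6.42 CPM in OsWRKY65-2. These did not overlap, but OsWRKY65-2 replicate 1 was barely above WT, and the log2 fold change of 0.56 ± 0.47 (SE) did not pass the test (edgeR adjusted p = 0.841).

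The 6 HD-Zip IV genes had reads in every library and overlapped between genotypes. Os08g0187500, annotated with protoderm differentiation, stood at 74.9, 78.6 and 58.3 CPM in WT and at 86.3, 77.4 and 40.4 CPM in OsWRKY65-2. Os04g0627000 (ROC2) stood at 49.4, 48.9 and 37.9 CPM in WT and at 66.1, 53.9 and 42.8 CPM in OsWRKY65-2. Os09g0526300, similar to GLABRA2, stood at 10.6, 12.3 and 15.5 CPM in WT and at 13.9, 9.02 and 6.10 CPM in OsWRKY65-2. Their log2 fold changes were -0.05, 0.26 and -0.40. Without replicate 3 OsWRKY65-2 was above WT for Os04g0627000, at 60 ± 8.59 CPM (SD, n = 2) against 45.4 ± 6.47 CPM (SD, n = 3), with a log2 fold change of 0.40 ± 0.21 (SE; edgeR adjusted p = 0.536). Os01g0788800, the lowest HD-Zip IV gene in CPM, went from 0.88 ± 1.03 (SE) to -0.59 ± 1.12 without that replicate. Os09g0526300 and Os09g0526200 (ROC6) share 1 older locus name, so their reads may have been divided between them.

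The HD-Zip IV gene furthest from 0 was Os04g0569100, annotated with cuticular wax synthesis, flowering time and drought response; it was chosen after its values were seen. It stood at 2.28, 5.59 and 0.447 CPM in WT and at 10.4, 4.39 and 50.3 CPM in OsWRKY65-2. Replicate 2 lay within the WT range and replicate 3 far above the others. With all libraries the log2 fold change was 2.93 ± 1.21 (SE; edgeR adjusted p = 0.763, DESeq2 adjusted p = 0.0918), and 1.38 ± 0.84 without replicate 3 (edgeR adjusted p = 0.605).

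The 6 other homeobox genes overlapped between genotypes. Os06g0485100, similar to a homeobox-like resistance protein, was among the steadiest members, at 44.5, 42.0 and 42.4 CPM in WT and 43.5, 44.5 and 27.5 CPM in OsWRKY65-2. Os10g0147300 stood at 15.5, 19.3 and 13.6 CPM in WT and at 22.2, 14.1 and 26.2 CPM in OsWRKY65-2, and Os07g0619600 at 20.5, 19.1 and 14.0 CPM in WT and 23.7, 16.6 and 6.31 CPM in OsWRKY65-2. Replicate 3 was the highest OsWRKY65-2 library for Os10g0147300 and the lowest for the other 2. The median log2 fold change of the 6 genes was -0.22, and close to 0 without replicate 3.

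The WOX gene Os07g0684900, annotated with crown root development, had the few reads given above and a mean of 0.832 TPM in OsWRKY65-2. The genotypes overlapped, with a log2 fold change of 1.66 ± 2.02 (SE; edgeR adjusted p = 0.891).

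The 2 TCP genes pointed in opposite directions without passing the test. Os01g0763200, annotated with mesocotyl elongation under strigolactone and cytokinin, stood at 19.7, 11.2 and 17.9 CPM in WT and at 29.2, 45.7 and 11.9 CPM in OsWRKY65-2. Replicates 1 and 2 were above every WT library, and replicate 3 lay within the WT range. The log2 fold change was 0.83 ± 0.52 (SE; edgeR adjusted p = 0.790) with all libraries and 1.20 ± 0.31 without replicate 3 (edgeR adjusted p = 0.255, DESeq2 adjusted p = 0.0586). Os06g0226700, a class I TCP gene annotated with negative regulation of tillering, stood at 13.5, 9.96 and 11.5 CPM in WT and at 5.93, 10.6 and 5.88 CPM in OsWRKY65-2. Its replicate 2 lay within the WT range, and its log2 fold change was -0.63 ± 0.37 (SE; edgeR adjusted p = 0.778).

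Genes that act with these families in meristems and young leaves were counted in the same fit, by annotation. Class I KNOX proteins are known to promote cytokinin synthesis and to restrain gibberellin synthesis. Of 21 enzymes of cytokinin synthesis and of gibberellin synthesis and breakdown, 9 were tested. Their median log2 fold change was -0.06, 4 of 9 were positive, and neither edgeR nor DESeq2 called any. Because the list pools enzymes on which KNOX proteins are known to act in opposite directions, its median shows no direction of that action. The median was 0.27, with 6 of 11 tested positive, without OsWRKY65-2 replicate 3. Os05g0421900, annotated as GA 20-oxidase4, had 1.44, 1.04 and 1.83 CPM in WT and 5.56, 0.856 and 8.34 CPM in OsWRKY65-2. The genotypes overlapped, with an edgeR adjusted p of 0.768. This gene had the largest log2 fold change of the 9, at 1.72, and was chosen after its values were seen.

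Of 85 boundary and polarity factors (lateral organ boundaries, NAM or CUP-SHAPED type and auxin response factors), 52 were tested, and 21 were positive, with a median of -0.09. In 9 of these the OsWRKY65-2 libraries were below WT with no overlap and in 1 above, beside 10.5% and 7.16% of all genes. DESeq2 called 2 lower, both lateral organ boundaries genes, beside 1.27% of all genes. The median was -0.03, and 27 of 55 were positive, without OsWRKY65-2 replicate 3. Os03g0609500, annotated with heading date and yield, stood at 10.8, 6.17 and 12.2 CPM in WT and at 3.41, 3.50 and 0.909 CPM in OsWRKY65-2, with a DESeq2 adjusted p of 0.0463. Os12g0106200, annotated with size of the shoot apical meristem, stood at 2.48, 2.35 and 3.98 CPM in WT and at 1.10, 0.927 and 0.856 CPM in OsWRKY65-2, with a DESeq2 adjusted p of 0.0393. Every OsWRKY65-2 library was below every WT library for both, but edgeR adjusted p was 0.763 and 0.764, and without OsWRKY65-2 replicate 3 DESeq2 called neither.

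Of 9 OVATE genes, a family known from tomato for restraining fruit elongation, 5 were tested, with a median log2 fold change of -0.98 and 1 of 5 positive. DESeq2 called Os01g0823500 lower, at 9.97, 7.45 and 6.09 CPM in WT and 2.57, 3.75 and 1.6 CPM in OsWRKY65-2 (DESeq2 adjusted p = 0.0235, edgeR adjusted p = 0.763). Without OsWRKY65-2 replicate 3 DESeq2 called no OVATE gene, and the median was -0.57. The 10 tested SBP factors of 11, which act in the timing of shoot phases, had a median of -0.18 with 2 of 10 positive, and of 0.14 with 7 of 11 positive without OsWRKY65-2 replicate 3. The 2 tested CLAVATA or CLE genes of 12, which act in meristem size, had log2 fold changes of -1.26 and -0.89, with a median of -0.55 without that replicate. Neither tool called any SBP, CLAVATA or CLE gene. Of the 86 tested cell division genes DESeq2 called 1 lower, the kinesin gene Os11g0648100 (adjusted p = 0.0270), beside 1.27% of all genes. With OsWRKY65-2 replicate 3 left out it called 8 higher and 1 lower of 88 tested, beside 1.11% and 1.73% of all genes. The list's median log2 fold change was 0.15, and 0.61 without that library.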

How the data were processed

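Libraries were sequenced from polyA RNA of leaves, 3 per genotype. Tools named in the submitters' processing notes are StringTie 2.1.3b, HISAT2 2.1.0, Trimmomatic and bcl2fastq 2.20.0, with build IRGSP-1.0; how reads were counted, with which strand setting and annotation release, is not stated. Per the file headers, the authors deposited read counts, FPKM and TPM per gene. The estimated counts deposited by the authors are whole numbers, made with the tools above per the submitters' processing notes, and were used as they stand. The TPM values deposited by the authors, scaled per transcript length, were used for levels between genes in OsWRKY65-2 only, because the WT columns match no single sample by name and 1 measure was taken from them. Of 18 columns of values per library, 9 were not used.

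The counts were fitted over all genes with edgeR 4.0.16 (quasi-likelihood, robust, TMM factors, genotype as the only term, prior count 2, low genes removed by filterByExpr at a count of 10) in R 4.3.3, with Benjamini-Hochberg adjustment over all genes tested and calls at an adjusted p under 0.05. CPM values are TMM-normalised. Standard errors are the fold change over the square root of F. Alternatives were DESeq2 1.42.0, other filters and factors, a replicate block, and each library left out. Fits were tested on simulated counts with known changes. There edgeR on all 6 libraries made no false call but missed most changed genes. DESeq2, and edgeR without OsWRKY65-2 replicate 3, called more unchanged genes than the threshold allows. Simulated libraries differed only by depth, random spread and the set changes, so none stood apart as OsWRKY65-2 replicate 3 did. These rates may therefore not hold for the real counts. A bound against libraries at 0 takes 3 counts per library and covers counting error only.

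The members and lists were chosen with earlier results of these data known, so no list has a p-value, and some list patterns were narrowed after reading the annotations they matched. Named were the 3 members of each subgroup with the highest mean TPM in OsWRKY65-2 (planned over all 6 libraries), the 12 with the largest fold change among members with no overlap and a mean of 1 CPM or more, any called by edgeR, DESeq2 or edgeR without OsWRKY65-2 replicate 3, and the gene taken as OsWRKY65; others are said to be chosen after their values were seen or complete a subgroup. Sequences and coordinates were not analysed here.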

Additional observations from a re-analysis of the deposited data

How the results depend on the processing

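Calls depended on the tool. Against 0 members higher and 0 lower in edgeR, DESeq2 called 1 higher and 1 lower with all libraries, 1 higher and 1 lower without OsWRKY65-2 replicate 3, and 1 higher and 0 lower with no filter; the DESeq2 runs without that replicate and with no filter were chosen after seeing the data. With RLE factors, no filter, a filter of 1 CPM in 3 libraries, the replicate block or any library left out, edgeR called 0 in each direction. The planned limma fit on TPM was not run, since TPM was not used for WT. The members' median log2 fold change of 0.23 ranged from -0.28 to 0.40 with a library left out. Deviations of same-numbered libraries had correlations near 0 over all genes tested (0.0498, -0.0581 and -0.00648). With few libraries a genotype, and WT numbers taken from column names, this cannot exclude that samples were paired. With the replicate block the median was -0.12. That block lowered the SE from 1.87 to 0.6 for Os03g0674700 and raised it from 1.47 to 2.03 for Os03g0123500.

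The named members whose sign changed under an alternative were called by no test. With a library left out, log2 fold changes ranged as follows. The range was -0.45 to 1.03 for Os02g0678800, -0.02 to 1.41 for Os02g0701300, -1.47 to 0.58 for Os03g0674700, -0.30 to 1.46 for Os04g0536300, -0.88 to 0.40 for Os04g0600900 and -0.30 to 0.03 for Os06g0485100. It was -0.33 to 4.67 for Os07g0129700, -0.64 to 0.17 for Os07g0619600, -0.26 to 0.21 for Os08g0187500, -0.07 to 0.36 for Os09g0528200 and -0.50 to 1.35 for Os12g0484900. Under DESeq2 without OsWRKY65-2 replicate 3 the value was 0.22 for Os03g0674700, 0.40 for Os04g0600900, 0.02 for Os06g0485100, 0.16 for Os07g0619600 and 0.20 for Os08g0187500. With the replicate block it was -0.56 for Os02g0678800, -0.12 for Os02g0701300 and -0.47 for Os12g0484900. Without OsWRKY65-2 replicate 3, 7 members changed sign in edgeR, 5 of them named here and the others Os01g0788800 and Os10g0377300. The causes were not tested. With 3 libraries a genotype, and 20 of 52 members under 5 CPM on average, depth and the spread between libraries limit what differences could be seen.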
